A study of Homo sapiens with 6 samples.

Results

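The genes described here are those that release calcium from the endoplasmic reticulum (ER), refill it from outside the cell and take calcium into mitochondria: ITPR1, ITPR2, ITPR3, STIM1, STIM2, ORAI1, ORAI2, ORAI3 and MCU. They were chosen by name for their roles, with earlier results of these data known, and make up 9 of the 58051 genes counted and 9 of the 20536 that passed the filter on low counts. RNA-seq was done on A172, an established human glioblastoma cell line, carrying a lentiviral vector for either GFP, as the control, or RBFOX1, an RNA-binding protein mainly found in neurons, heart and muscle. Each group had 3 libraries, described in the study's methods as biological replicates. All 6 libraries came from cells transduced with the pLX317 vector, with no untransduced cells among them. The sources used here do not say whether the lines were clones or pools, nor whether the replicates of a group came from separate transductions, so that the p-values below measure only the spread between these libraries. The comparison asks how the messenger RNA of these genes differs between glioblastoma cells that overexpress RBFOX1 and those that express GFP.

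When a receptor at the cell surface activates phospholipase C, the enzyme makes inositol trisphosphate (IP3), which opens the IP3 receptors in the ER membrane. These receptors are encoded by ITPR1, ITPR2 and ITPR3 and assemble as tetramers. As the store empties, the sensors STIM1 and STIM2 in the ER membrane lose their bound calcium, cluster next to the plasma membrane and open the ORAI channels, through which calcium enters and refills the store. Mitochondria close to the ER take up part of the released calcium through the mitochondrial calcium uniporter, whose pore is MCU. Glial cells, which do not fire action potentials, are known to signal largely through such ER release.

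Of these 9 genes, 4 fell and 3 rose in the RBFOX1 line. ITPR3, ORAI1 and ORAI3 each fell to about the same extent, with fold values of 0.515, 0.516 and 0.510 relative to GFP, and ORAI2 fell to 0.824. ITPR2 rose 1.5-fold, STIM2 1.35-fold and MCU 1.21-fold. ITPR1 and STIM1 did not pass the test. The threshold was an adjusted p of 0.05 in edgeR's quasi-likelihood test over all genes tested. Of all those genes 46.7% passed it, 23.7% as higher and 22.9% as lower, so that a call by itself does not set these genes apart. The 7 genes called were also those whose GFP and RBFOX1 values did not overlap, which held for 53.4% of all genes tested. With a log2 fold change of at least 0.5 in either direction required as well, 4 of the 9 genes passed (ITPR2, ITPR3, ORAI1 and ORAI3), against 26.2% of all genes. The median log2 fold change of the 9 genes was -0.24, and that of all genes tested was 0.0051.

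**Figure D1:**
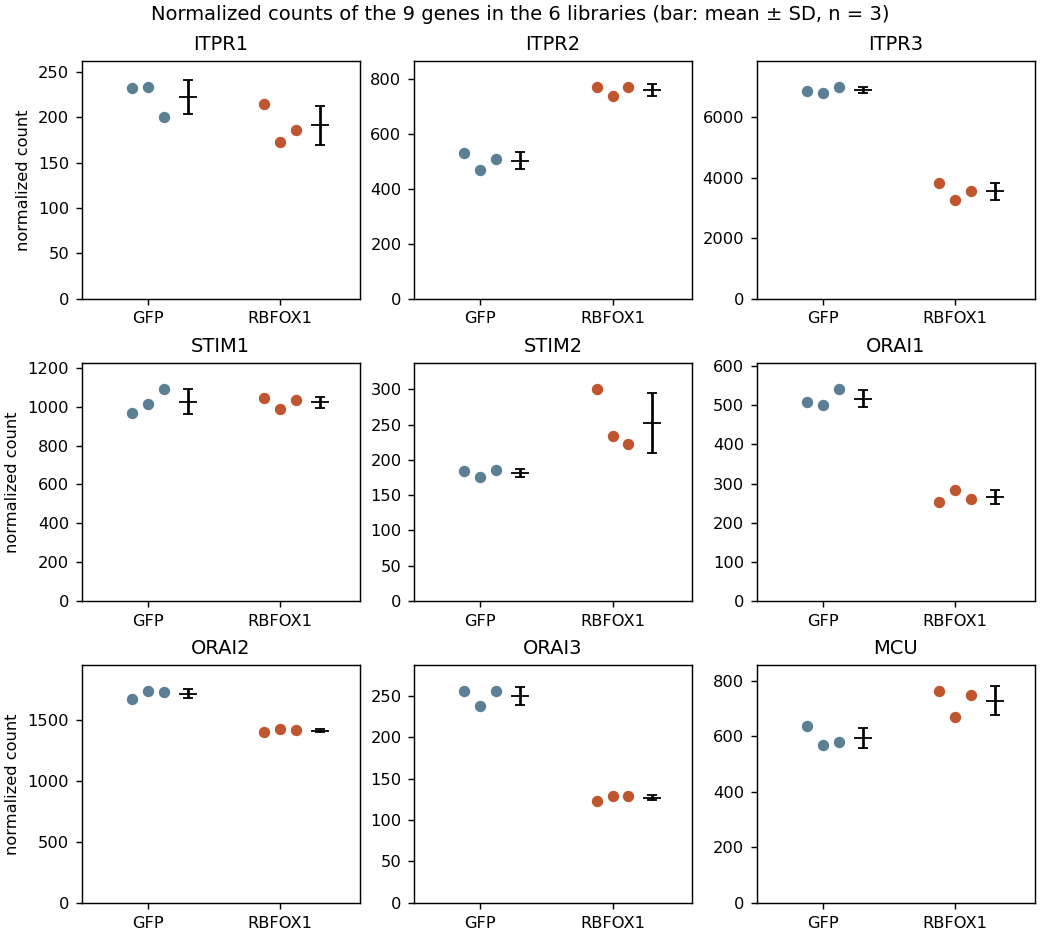
Normalized counts (y axis, from 0) of each gene in the 3 GFP and the 3 RBFOX1 libraries (points), with the mean and SD of each group beside them. The groups are apart in 7 panels and overlap for ITPR1 and STIM1, and STIM2 has its highest value, 301, in the first RBFOX1 library.

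**Figure D2:**
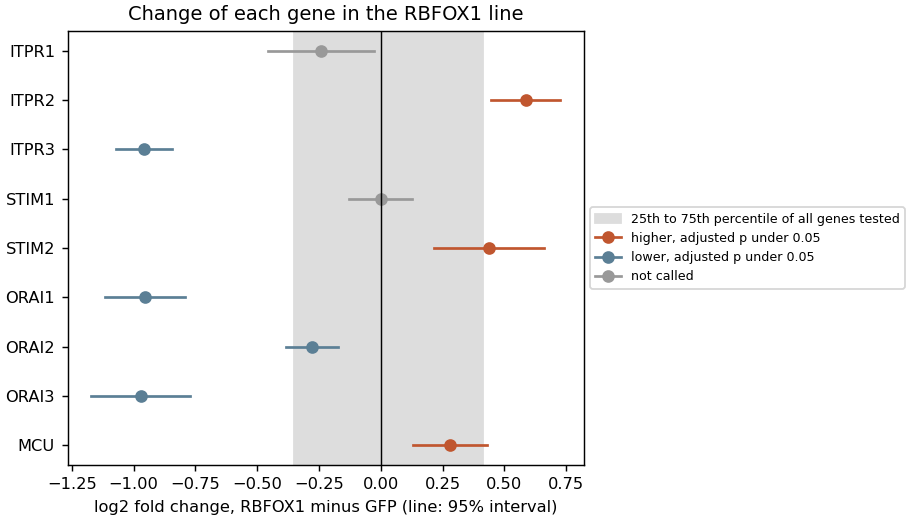
Log2 fold change of RBFOX1 against GFP (x axis) for each gene (y axis), with the 95% interval from edgeR as a line, and the 25th to 75th percentile of all genes tested (-0.35 to 0.41) shaded. ITPR3, ORAI1 and ORAI3 lie to the left of the shaded range near -0.96, ITPR2 and STIM2 lie to its right, and ORAI2, MCU, ITPR1 and STIM1 lie within it.

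The libraries held between 7433414 and 23249221 counts on genes, the shallowest being RBFOX1 replicate 1, and normalized counts are counts scaled to the mean effective library size. The RBFOX1 gene itself had 4, 0 and 1 counts in the GFP libraries and 10276, 16467 and 21451 in the RBFOX1 libraries, which matches the labels. The vector's insert and the gene's own transcript cannot be told apart in a count table. Its paralog RBFOX2, present in both groups, fell from 2549 ± 61.8 to 2151 ± 69.0 normalized counts (SD, n = 3; adjusted p = 0.000347). Marker genes were checked against the label. Of 9 glial and mesenchymal markers S100B had at most 3 counts in every library and GFAP averaged 2.68 and 1.58 normalized counts in GFP and RBFOX1, whereas VIM, CD44 and NES were abundant. The summed level of the list was 77100 to 78700 in GFP and 51200 to 52000 in RBFOX1, most of it from VIM (59590 and 37900 normalized counts on average) and CD44 (13770 and 7366). Its members did not move together: TNC had 903 and 71.5 normalized counts, while NES had 3482 and 5272, SOX2 23.5 and 132, and CHI3L1 6.94 and 738. The summed level of 5 neuronal markers was 3970 to 4300 in GFP and 17500 to 19500 in RBFOX1, almost all of it from NEFL, while RBFOX3 and SNAP25 had at most 3 counts in every library. Immune markers (4 genes) summed to 15.2 to 35.2 and 54.4 to 72.2, with AIF1 at 0 counts and the difference carried by PTPRC (16.2 and 60.3 on average, against 6.83 and 3.74 for CD14), and endothelial markers (3 genes) to 10.3 to 12.8 and 95.9 to 109. CDKN2A, a tumour suppressor deleted in A172, had 0 counts in every library, where up to 3 counts per library could have gone unseen. The part of these marker differences in the results below was not tested, and in bulk RNA fewer cells of a type and less RNA per cell cannot be told apart.

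RBFOX proteins bind the RNA motif UGCAUG, in introns, where they steer splicing, and in 3′ untranslated regions (UTRs), where they have been tied to transcript stability. The motif is therefore shown for the genes that hold it in the 3′ UTR of their canonical transcript, written as DNA on the sense strand with TGCATG in capitals and 11 bases on either side. Among the 9 genes, 4 held it: ITPR2 and ORAI2 3 times each, MCU 2 times and STIM1 once. Windows of most of these sites, on GRCh38 with the position of the motif, are as follows.
ITPR2 site 1 (chr12:26337659-26337664, minus strand, 1733 bases past the stop codon): tttgatatgtcTGCATGcagcacagaac
ITPR2 site 2 (chr12:26335800-26335805, minus strand, 3592 bases past the stop codon): agtcactaaatTGCATGaaattgtgagg
ITPR2 site 3 (chr12:26335580-26335585, minus strand, 3812 bases past the stop codon): atagcctaacgTGCATGtgaaaatcgag
MCU site 1 (chr10:72886517-72886522, plus strand, 695 bases past the stop codon): actggcaacacTGCATGaggttgttggt
MCU site 2 (chr10:72887362-72887367, plus strand, 1540 bases past the stop codon): gaatgaaaggaTGCATGtctccacttcc
STIM1 site (chr11:4092053-4092058, plus strand, 255 bases past the stop codon): ctccacttcagTGCATGtcttagttgct
ORAI2 site (chr7:102451506-102451511, plus strand, 4454 bases past the stop codon): ctgatgatctaTGCATGgcgttatgtag
ORAI2 further site (chr7:102454505-102454510, plus strand, 7453 bases past the stop codon): agaatgggcttTGCATGgagcttggctc

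The number of sites has to be read against the length of the 3′ UTR. Of 14052 tested protein-coding genes with an annotated canonical 3′ UTR, 36.5% held the motif at least once. The 3′ UTR of ITPR2 has 4045 bases, and 68.8% of other genes within 20% of that length held a site. For ORAI2, with 9773 bases, the share was 92.5%, for MCU, with 1872 bases, 41.9%, and for STIM1, with 1410 bases, 33.3%. The 5 genes with no site were ITPR1 (1281 bases; 30.8% of genes of like length held one), ITPR3 (782 bases; 21.7%), STIM2 (2385 bases; 53.1%), ORAI1 (397 bases; 10.4%) and ORAI3 (1094 bases; 27.3%). Of the 3 genes that rose, ITPR2 and MCU held the motif and STIM2 did not, and of the 4 that fell, ORAI2 held it and ITPR3, ORAI1 and ORAI3 did not. Of the genes that did not pass the test, STIM1 held it and ITPR1 did not. A match is a description of these letters and not a binding site, and binding was not measured in these libraries.

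Among the IP3 receptors, ITPR3 was by far the most abundant and fell the most. ITPR3 (chromosome 6, 33620365 to 33696574, plus strand) encodes the type 3 receptor, known to feed calcium to mitochondria in many epithelial and tumour cells. It had 6867, 6826 and 7023 normalized counts in GFP and 3843, 3283 and 3560 in RBFOX1, a log2 fold change of -0.96 ± 0.05 (SE; adjusted p = 1.17e-11). Every RBFOX1 library was thus below every GFP library by 2982 normalized counts or more. Its exons overlap those of UQCC2 on the other strand by 1025 bases, and the authors' counting used strand.

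ITPR2 (chromosome 12, 26335352 to 26833194, minus strand) encodes the type 2 receptor, the form with the highest sensitivity to IP3 and the main one of astrocytes. It moved the other way, from 529, 469 and 507 normalized counts in GFP to 771, 735 and 769 in RBFOX1, a log2 fold change of 0.59 ± 0.07 (adjusted p = 3.46e-07). All RBFOX1 libraries were above all GFP libraries, and the gap between the groups was wider than the range within either.

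ITPR1 (chromosome 3, 4493345 to 4847506, plus strand) encodes the type 1 receptor, the main form of neurons and best known from cerebellar Purkinje cells. Its normalized counts were 232, 234 and 200 in GFP and 214, 172.1 and 186 in RBFOX1, so that the groups overlapped. The log2 fold change was -0.24, with a 95% interval of -0.46 to -0.03 before adjustment, and the adjusted p was 0.0602. ITPR1 passed the threshold without GFP replicate 3 (-0.30; adjusted p = 0.0312) and without RBFOX1 replicate 1 (-0.30; adjusted p = 0.0337), and over all alternatives its adjusted p ran up to 0.265.

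The balance among the IP3 receptor genes was compared as the share of each in their sum per kilobase of annotated exons. ITPR3 made up 93.9%, 94.4% and 94.3% of the sum in the GFP libraries and 86.3%, 85.1% and 85.5% in the RBFOX1 libraries. ITPR2 went from 5.14%, 4.61% and 4.83% to 12.3%, 13.5% and 13.1%. ITPR1 stayed the smallest, at 0.93% ± 0.09 in GFP and 1.41% ± 0.06 in RBFOX1 (SD, n = 3). Per kilobase of the canonical transcript ITPR1 was again the smallest but higher, at 2.72% ± 0.26 and 4.07% ± 0.17. ITPR3 therefore still made up most of the sum in every RBFOX1 library, and none of the 3 shares overlapped between the groups. The sum itself was 743 ± 10.9 normalized counts per kilobase in GFP and 421 ± 30.3 in RBFOX1, 43.3% less.

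As log2 ratios of counts, which do not depend on gene length within a comparison, ITPR3 to ITPR2 went from 3.78 ± 0.08 in GFP to 2.23 ± 0.08 in RBFOX1 (SD, n = 3), so that the ratio in RBFOX1 was 0.340 of that in GFP. The ratio of ITPR3 to ITPR1 differed by -0.74 and that of ITPR2 to ITPR1 by 0.82. In all 3 ratios the groups did not overlap. Each gave p = 0.1 in a two-sided exact permutation test and 0.117 after Benjamini-Hochberg adjustment over the 7 ratios compared among the ITPR, ORAI and STIM genes. With 3 libraries against 3 the exact test cannot go below 0.1, so that none of these ratios could pass 0.05.

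**Figure D3:**
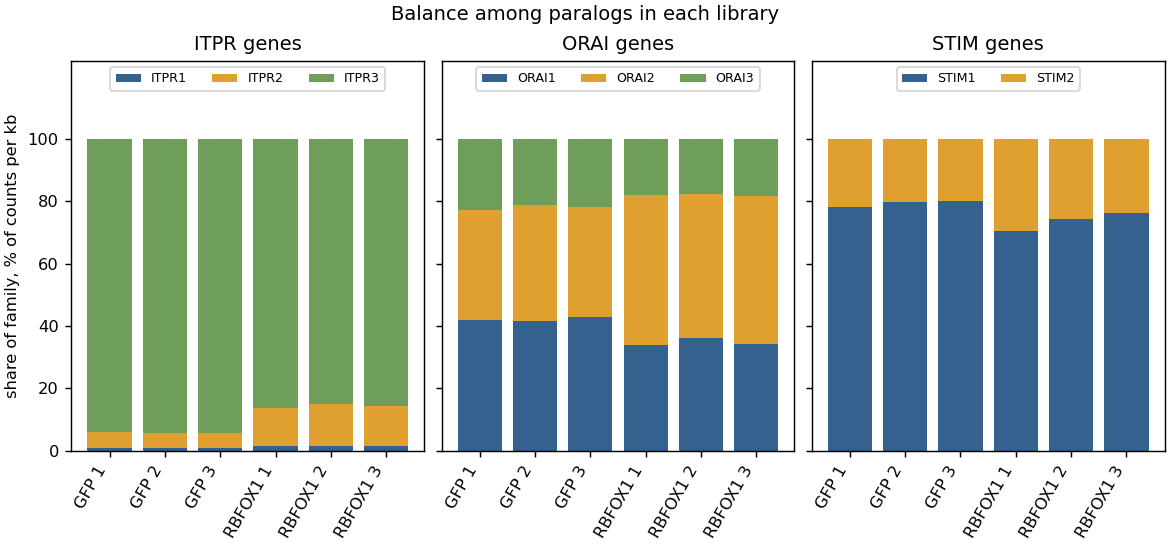
Share of each gene in the sum of its family (y axis, percent of normalized counts per kilobase of annotated exons) in each library (x axis), for the ITPR, ORAI and STIM genes. ITPR3 fills 93.9% to 94.4% of the bar in GFP and 85.1% to 86.3% in RBFOX1, and ORAI2 grows from 35.2% to 37.1% up to 46.3% to 48.3%.

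Of the sensors, STIM2 rose and STIM1 did not pass the test. STIM1 (chromosome 11, 3854527 to 4093210, plus strand) encodes the sensor that responds to strong depletion of the store. It had 966, 1014 and 1093 normalized counts in GFP and 1043, 990 and 1034 in RBFOX1, which overlap. Its log2 fold change was -0.00058, with a 95% interval of -0.13 to 0.13 (adjusted p = 0.995), so that changes beyond about that size lie outside the interval.

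STIM2 (chromosome 4, 26857601 to 27025381, plus strand) encodes the sensor that responds to small falls in ER calcium and helps to hold the resting level. It had 185, 175 and 185 normalized counts in GFP and 301, 234 and 222 in RBFOX1, a log2 fold change of 0.44 ± 0.11 (adjusted p = 0.00198). All RBFOX1 libraries were above the GFP libraries, but the spread among them was wide (SD 42.6 against 5.68), with the highest value in the shallowest library. Without RBFOX1 replicate 1 the log2 fold change was 0.33 and still passed the threshold. The share of STIM2 in the sum of both genes per kilobase was 21.7%, 20.1% and 19.8% in GFP and 29.6%, 25.6% and 23.8% in RBFOX1. The log2 ratio of STIM2 to STIM1 differed by 0.46, without overlap (exact permutation p = 0.1; adjusted over the 7 ratios 0.117).

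All ORAI genes fell, and the 95% intervals of ORAI1 (-1.12 to -0.79) and ORAI3 (-1.17 to -0.77) did not overlap that of ORAI2 (-0.38 to -0.17). ORAI1 (chromosome 12, 121626509 to 121643218, plus strand) encodes the pore of the classical calcium release-activated channel. It had 508, 501 and 543 normalized counts in GFP and 252, 284 and 260 in RBFOX1, a log2 fold change of -0.95 ± 0.08 (adjusted p = 2.95e-09). The highest RBFOX1 library was thus far below the lowest GFP library.

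ORAI3 (chromosome 16, 30949068 to 30956461, plus strand) encodes a pore subunit found in mammals, known from store-operated channels of some breast cancer cells. It had 255, 237 and 256 normalized counts in GFP and 123, 129 and 129 in RBFOX1, a log2 fold change of -0.97 ± 0.10 (adjusted p = 4.91e-08). The RBFOX1 libraries were close to one another (SD 3.13). ORAI3 shares 1397 exonic bases on the same strand with the noncoding gene ENSG00000261487, and reads that could belong to both were not counted for either. That gene had at most 1 count in any library.

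ORAI2 (chromosome 7, 102433106 to 102456825, plus strand) encodes a subunit known to lower the current when it joins ORAI1 in a channel. It had 1675, 1745 and 1738 normalized counts in GFP and 1402, 1426 and 1419 in RBFOX1, a log2 fold change of -0.28 ± 0.05 (adjusted p = 1.10e-04). The fall was small but larger than the spread, since every RBFOX1 library lay below every GFP library.

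Because ORAI1 and ORAI3 fell further, the balance among the ORAI genes moved toward ORAI2. Per kilobase of annotated exons, the share of ORAI2 was 35.4%, 37.1% and 35.2% in GFP and 48.3%, 46.3% and 47.7% in RBFOX1. The share of ORAI1 went from 42.2% ± 0.69 to 34.7% ± 1.19 and that of ORAI3 from 21.9% ± 0.73 to 17.9% ± 0.30 (SD, n = 3). ORAI1 had the largest share in every GFP library and ORAI2 in every RBFOX1 library, an order that depends on gene length: per kilobase of the canonical transcript ORAI1 stayed the largest in both groups, at 55.8% and 48.4%, against 25.9% and 35.9% for ORAI2. The annotated exons of ORAI3, 2641 bases, took in the 1397 shared with ENSG00000261487, where reads that could belong to both were not counted. The level of ORAI3 per kilobase may therefore be too low, and the shares of ORAI1 and ORAI2 too high. How far this changes the order was not tested. The log2 ratio of ORAI1 to ORAI2 differed by -0.68 and that of ORAI3 to ORAI2 by -0.69, both without overlap (exact permutation p = 0.1 each; adjusted over the 7 ratios 0.117). The ratio of ORAI1 to ORAI3 differed by 0.011 with overlapping groups (exact permutation p = 0.9).

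The summed ORAI level was 431 ± 11.5 normalized counts per kilobase in GFP and 269 ± 7.77 in RBFOX1, 37.6% less. Both sums take in ORAI3 at a length that includes the bases shared with ENSG00000261487. From this alone they may be too low, and the ratio of STIM to ORAI below too high, in both groups. The summed STIM level was 107 ± 5.54 and 115 ± 6.66, which overlap. The ratio of summed STIM to summed ORAI per kilobase was 0.241, 0.249 and 0.255 in GFP and 0.470, 0.399 and 0.420 in RBFOX1. Its level depends strongly on the length used. Per kilobase of the canonical transcript it was higher, at 0.44, 0.46 and 0.47 in GFP and 0.87, 0.75 and 0.80 in RBFOX1. More sensor transcript thus stood against each channel transcript in every RBFOX1 library than in any GFP library.

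MCU (chromosome 10, 72692143 to 72887694, plus strand), the uniporter's pore, had 636, 568 and 579 normalized counts in GFP and 764, 667 and 750 in RBFOX1. The log2 fold change was 0.28 ± 0.07 (adjusted p = 0.00279). The groups did not overlap, but GFP replicate 1 and RBFOX1 replicate 2 were only 31.0 normalized counts apart.

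To set these genes beside one another, levels were taken per kilobase of annotated exons. In GFP the order of the levels was ITPR3 (700 ± 10.6 normalized counts per kilobase), ORAI1 (182 ± 7.86), ORAI2 (155 ± 3.47), MCU (132 ± 8.12), ORAI3 (94.4 ± 4.03), STIM1 (85.1 ± 5.36), ITPR2 (36.1 ± 2.18), STIM2 (21.9 ± 0.69) and ITPR1 (6.91 ± 0.59). Only ORAI3 and STIM1 overlapped among neighbours in this order. In RBFOX1 it was ITPR3 (361 ± 28.4), MCU (161 ± 11.5), ORAI2 (127 ± 1.09), ORAI1 (93.4 ± 5.87), STIM1 (84.9 ± 2.33), ITPR2 (54.5 ± 1.45), ORAI3 (48.1 ± 1.19), STIM2 (30.5 ± 5.14) and ITPR1 (5.94 ± 0.66), and no neighbours overlapped. ITPR3 stayed first and ITPR1 last in both groups, while MCU moved above the ORAI genes. Per kilobase of the canonical transcript STIM1, whose annotated exons are much longer than that transcript, stood above MCU and ORAI2 in GFP at 246 ± 15.5, so that the middle of the order rests on the length used. The place of ORAI3 rests on it too, since its length took in the bases shared with ENSG00000261487.

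The promoter, the stretch just before the transcription start, is shown for ORAI3, which fell, and MCU, which rose, because for ORAI3 the RefSeq start, and for MCU the first of 2 RefSeq starts, lies at the edge of the annotated gene. RefSeq (GRCh38.p14) gave starts for 7 of the 9 genes, with none for ITPR2 and ORAI1. The 250 bases before the start were searched on both strands for GGGCGG, the box bound by Sp1, and CCAAT, the box bound by NF-Y, and matches are in capitals.
ORAI3 (chr16:30948818-30949067, plus strand): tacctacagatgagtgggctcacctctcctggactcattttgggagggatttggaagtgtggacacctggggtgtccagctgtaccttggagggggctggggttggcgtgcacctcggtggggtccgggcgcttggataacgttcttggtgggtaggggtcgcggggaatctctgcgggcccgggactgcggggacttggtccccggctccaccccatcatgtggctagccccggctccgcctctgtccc
MCU (chr10:72691893-72692142, plus strand): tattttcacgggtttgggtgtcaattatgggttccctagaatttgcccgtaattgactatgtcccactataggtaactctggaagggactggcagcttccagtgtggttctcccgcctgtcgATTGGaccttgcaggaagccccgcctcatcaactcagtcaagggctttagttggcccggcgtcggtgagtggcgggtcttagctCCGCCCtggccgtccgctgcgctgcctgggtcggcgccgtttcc
The MCU window held each motif once, both on the minus strand, and the ORAI3 window held neither. Over the other windows searched, GGGCGG was found 2 times each for ITPR3 and ORAI2, which fell, 2 times for STIM2 and for the second MCU start, which lies inside the annotated gene, 0 to 8 times over the 4 STIM1 starts, and not for ITPR1. CCAAT was found once for STIM2 and once for 1 of the STIM1 starts. Over all 35116 windows of this length in the RefSeq table, 42.6% held GGGCGG and 32.0% held CCAAT.

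The other genes of the pathway were taken in 9 lists by role, 103 genes in all, of which 86 were tested. Of these, 26 were higher and 28 lower in RBFOX1, that is 30.2% and 32.6%, where 23.7% and 22.9% of all genes were. The counts given for each list below have to be read against these same shares of all genes.

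**Figure D4:**
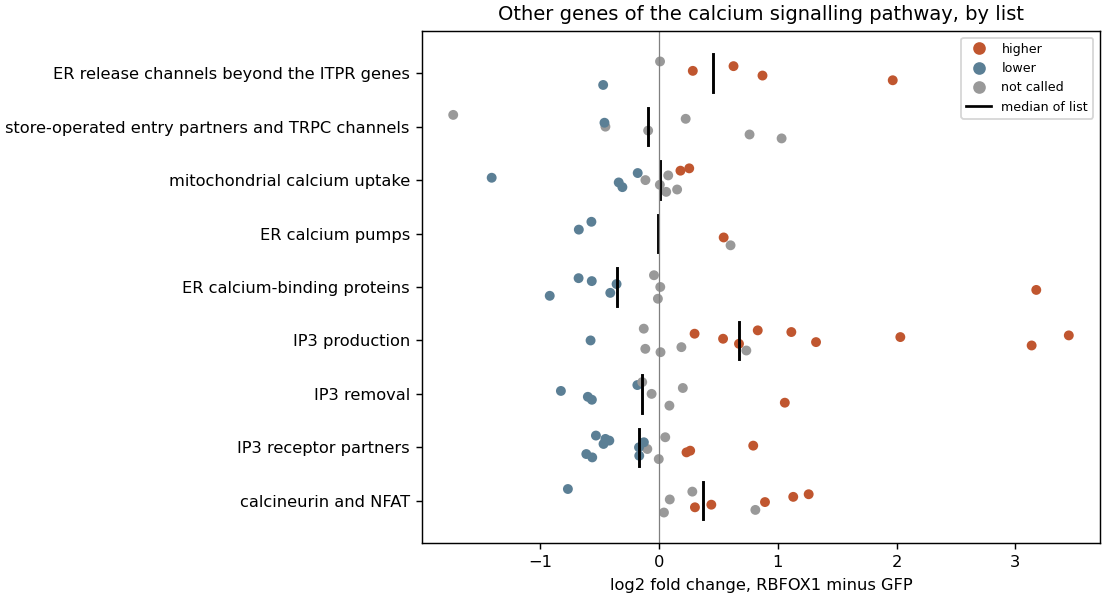
Log2 fold change of RBFOX1 against GFP (x axis) of each tested gene in the 9 lists (y axis), coloured by whether it passed an adjusted p of 0.05, with the median of each list as a black line. The median is highest for IP3 production (0.67) and lowest for the ER calcium-binding proteins (-0.36).

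The list for IP3 production holds phospholipase C genes and the G protein subunits that drive some of them. Of 15 genes tested, 9 were higher and 1 lower, all of them phospholipases. The median log2 fold change of the list was 0.67, or 0.61 without PLCB2, which had at most 1 count in any GFP library. PLCB4 and PLCB3, phospholipases driven by G proteins, rose by 1.32 ± 0.09 (adjusted p = 1.25e-10) and 0.67 ± 0.05 (adjusted p = 1.61e-09) on the log2 scale. PLCG2, driven by tyrosine kinases, rose by 1.11 ± 0.10 (adjusted p = 1.31e-08). The G protein subunits GNAQ and GNA11, which drive the PLCB enzymes, did not pass, at -0.12 and 0.01.

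The list for IP3 removal holds not only enzymes that act on IP3 itself but also some of later steps. In it, 1 of 9 genes was higher and 4 were lower, with a median of -0.14. ITPKA, an IP3 kinase, fell by 0.83 ± 0.10 (adjusted p = 6.38e-07), and INPP5A, the main IP3 phosphatase, by 0.60 ± 0.10 (adjusted p = 4.22e-05). IMPA2, an inositol monophosphatase that acts further down, rose by 1.06 ± 0.18 (adjusted p = 4.32e-05).

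Of 15 tested partners of the IP3 receptors, 3 were higher and 9 lower, with a median of -0.17. ITPRID2, an actin-bound protein that holds IP3 receptors in place, rose by 0.79 ± 0.05 (adjusted p = 6.07e-11). ERLIN2, which with ERLIN1 and the ligase RNF170 sends activated receptors to degradation, fell by 0.61 ± 0.05 (adjusted p = 2.05e-09), and AHCYL2, a relative of the IP3 receptor binding protein IRBIT, by 0.56 ± 0.09 (adjusted p = 4.52e-05).

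Of 6 other release channels tested, 4 were higher and 1 lower, with a median of 0.46. RYR2, a ryanodine receptor best known from heart muscle, rose by 0.87 ± 0.15 (adjusted p = 8.74e-05) from a low level of 73.0 ± 8.62 to 136 ± 32.1 normalized counts. TPCN1, a channel of endosomes and lysosomes, rose by 0.63 ± 0.09 (adjusted p = 5.62e-06), and PKD2, polycystin-2, fell by 0.47 ± 0.07 (adjusted p = 6.07e-06).

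Among partners of store-operated entry, 1 of 7 tested passed the test. That was TRPC1, a cation channel tied to store-operated entry, which fell by 0.46 ± 0.07 (adjusted p = 1.14e-05). SARAF, which switches STIM1 off, did not pass, at -0.09 (adjusted p = 0.198), nor did STIMATE, at -0.45 with about 22 normalized counts.

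In the mitochondrial list, 2 of 11 genes were higher and 4 lower, with a median of 0.0064. The sodium-calcium exchanger SLC8B1, which carries calcium back out of mitochondria, fell by 1.41 ± 0.07 (adjusted p = 6.86e-13), from 958 ± 23.3 to 362 ± 16.7 normalized counts. MICU2, a gatekeeper of the uniporter, fell by 0.34 ± 0.07 (adjusted p = 0.000419) and MCUR1, a uniporter regulator, by 0.31 ± 0.08 (adjusted p = 0.00507). SMDT1, which ties the pore to its gatekeepers (0.08), and MCUB, which dampens the uniporter (0.15; adjusted p = 0.0688), did not pass.

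Calcium pumps gave 1 higher and 2 lower of 4 tested. ATP2A2, the housekeeping SERCA pump that fills the ER, rose by 0.54 ± 0.08 (adjusted p = 5.26e-06), from 1882 ± 267 to 2734 ± 132 normalized counts. ATP2A3, a SERCA pump of blood and epithelial cells, fell by 0.68 ± 0.15 (adjusted p = 0.000669), and ATP2C1, the Golgi pump, by 0.57 ± 0.06 (adjusted p = 4.21e-08).

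Of 9 ER calcium-binding proteins tested, 5 were lower and 1 higher, with a median of -0.36, or -0.38 without CASQ1, which had at most 3 counts in any GFP library. CALU fell by 0.92 ± 0.05 (adjusted p = 1.90e-12), RCN2 by 0.68 ± 0.05 (adjusted p = 1.59e-09) and RCN1 by 0.57 ± 0.05 (adjusted p = 7.62e-09), all of them EF-hand proteins of the secretory pathway. CALR, the main calcium buffer of the ER, did not pass, at -0.01 (adjusted p = 0.911).

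Downstream of store-operated entry, calcium activates the phosphatase calcineurin, which sends NFAT factors to the nucleus. Here 5 of 10 genes tested were higher and 1 lower, with a median of 0.37. PPP3R1 and PPP3CB, the regulatory and a catalytic subunit, rose by 1.13 ± 0.07 (adjusted p = 2.36e-11) and 0.89 ± 0.09 (adjusted p = 1.20e-07). RCAN1, a calcineurin inhibitor, rose by 1.26 ± 0.05 (adjusted p = 4.38e-14), from 3033 ± 61.0 to 7260 ± 342 normalized counts.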

How the data were processed

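Total RNA from A172 cells expressing GFP or RBFOX1 (3 libraries each) was rRNA-depleted and sequenced from stranded libraries. The deposited values are raw counts per Ensembl gene, which the authors made with HISAT2 on GRCh38 and HTSeq (Ensembl release 87, strand used). HTSeq's 5 rows for reads not assigned to a single gene, 38.1% to 48.0% of each library's total, were left out. Columns of the authors' own DESeq2 comparison (fold changes and p-values) were not used. Counts were tested with edgeR 4.0.16 (TMM, quasi-likelihood, Benjamini-Hochberg) on genes with at least 10 counts over the 6 libraries. Paralog ratios were tested by exact permutation with SciPy 1.17.1. Positions and lengths are from GENCODE 44, on the same build but later than the annotation counted, which held 98.1% of the gene IDs. DESeq2 1.42.0 and other settings served as alternatives. The code was tested on simulated data. Members and lists were chosen with earlier results of these data known. Named were the 9 genes, RBFOX1, RBFOX2, direct partners, and from each list up to 3 genes past the threshold with the largest change and a mean normalized count of at least 50. The 3 genes most like ITPR3 were named by Pearson's r. Genes and markers named beyond these were chosen after their values were seen. Floors of 3 counts cover counting error only. A few items that this rule or the marker lists cover are not reported here.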

Additional observations from a re-analysis of the deposited data

How the results depend on the processing

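The calls of ITPR2, ITPR3, STIM2, ORAI1, ORAI2, ORAI3 and MCU kept their direction and their side of the threshold with DESeq2, with RLE size factors, under both other filters and without any single library. With a log2 fold change of at least 0.5 required, 1 gene was higher in place of 3 and 3 were lower in place of 4. The log2 fold change of ITPR1 ran from -0.304 to -0.169 without single libraries, and 5 members were lower where it was called. That of STIM1 was 0.00467 with DESeq2, 0.00599 with RLE size factors and 0.0149 under edgeR's own filter, and -0.0418 to 0.05 without single libraries, with no call in any. The log2 ratio of ORAI1 to ORAI3 differed by -0.0287 to 0.0347 without single libraries.

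Shares depended on the length used. Per kilobase of the canonical transcript the share of ITPR3 differed between the groups by -9.31 percentage points, ITPR1 by 1.35, ORAI2 by 10.1 and ORAI3 by -2.58. With counts not divided by length the differences were -11.6 for ITPR3, 10.3 for ITPR2, 1.31 for ITPR1, -6.12 for ORAI1, 9.13 for ORAI2 and -3.01 for ORAI3. All kept their sign.

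The replicate numbers showed no sign of pairing the libraries: deviations of same-numbered libraries correlated at -0.0326, 0.0156 and -0.00055. The sources used here do not say whether same-numbered libraries were handled together. With the number as a replicate block the calls were again 3 higher and 4 lower (ITPR1 -0.217, adjusted p = 0.109), and 26 list genes were higher and 26 lower. The list genes called ranged from 24 to 27 higher and 24 to 28 lower over the alternatives. Counts were lowest for ORAI3, ITPR1 and STIM2, at 68 to 420, 118 to 382 and 150 to 304 per library.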

Other observations

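Over the 6 libraries, the protein-coding genes whose log2 level followed ITPR3 most closely, of 11068 compared, were RPS6KA1 (Pearson's r = 0.9995), SORCS2 (0.9994) and EHBP1L1 (0.9994). The libraries fall into 2 groups, so that this measure mostly sets the difference between GFP and RBFOX1 and is given as a description.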
